A study of Mus musculus with 36 samples.

Results

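The integrin and laminin subunits comprised the 37 genes of the count table whose symbols named an integrin α chain, an integrin β chain or a laminin α, β or γ chain, out of 55487 genes. They divided into 26 integrin subunits, of which 18 were α and 8 were β chains, and 11 laminin chains, of which 5 were α, 3 were β and 3 were γ. Their RNA was measured in bulk in the retina, the unmyelinated optic nerve (UON, the stretch directly behind the eye) and the myelinated optic nerve (MON, the first stretch behind the myelin transition zone) of wild-type C57BL/6 mice aged 2 to 4 months. Naïve mice were compared with mice 3 days or 2 weeks after unilateral optic nerve crush, a mechanical axon injury, and with mice at 3 days, at 2 weeks or at 6 weeks after injection of microbeads into the anterior chamber of 1 eye, which raises intraocular pressure and serves as a glaucoma model. None of the groups carried a transgene or an engineered allele. Each of the 18 groups held 2 libraries, 1 from females and 1 from males, and each library pooled the RNA of 2 mice of that sex, so that pool, sex and mice cannot be told apart and n = 2 pools throughout. The same mice supplied the 3 tissues, and the naïve pools of a tissue served as the control for both crush and glaucoma. The p-values measure the spread between these pools alone.

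Integrins are transmembrane receptors built of an α and a β chain that tie the cytoskeleton to the extracellular matrix or to other cells, and the pairing of the chains sets the ligand. Laminins are secreted trimers of an α, a β and a γ chain that assemble into basement membranes, among them those around vessels, beneath the pia and at the vitreal face of the retina and optic nerve head. Astrocytes of the optic nerve head contact these membranes through laminin receptors such as α3β1, α6β1 and α6β4, while the β2 integrins, which pair the product of Itgb2 with those of Itgal, Itgam, Itgax or Itgad, are carried by leukocytes including microglia.

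Total counts ran from 16.2 to 78.1 M per library, and in 36 of 36 libraries the sex-specific genes matched the labelled sex. Defining markers fitted the dissection. The summed level of 7 photoreceptor markers was 55197 to 69750 CPM (counts scaled to library size by the trimmed mean of M values over all libraries) in retina, 10.3 to 376 in UON and 8.93 to 163 in MON, and that of 7 oligodendrocyte markers was 28751 and 21927 in the naïve UON pools against 164812 and 122611 in the naïve MON pools, so oligodendrocyte RNA was lower but not absent in UON. In bulk tissue, fewer cells of a type and less RNA per cell cannot be told apart. Values below are given for the female pool and then the male pool.

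Itga5 and the β2 family members Itgb2, Itgam and Itgax were the members edgeR called in MON after crush at 3 days, and the bases just before the start sites are shown for the 3 of them with a RefSeq promoter entry. Itga5 (ENSMUSG00000000555), the fibronectin receptor α chain, lies on the minus strand of chromosome 15 from 103344286 to 103366763. Itgam (ENSMUSG00000030786) and Itgax (ENSMUSG00000030789) are neighbours on the plus strand of chromosome 7, from 128062640 to 128118491 and from 128129547 to 128150657, with Itgad (ENSMUSG00000070369) next at 128154376 to 128223816. RefSeq promoters on GRCm38.p6 were matched by symbol for 23 of the 37 members. Among the missing were Itgb3, Itgb4, Lamc3, Lama1, Itga7, Lamc1, Lama4, Itgb2, Itga6, Lama3, Itgal, Itgae and Itgad. The sequences cover positions -150 to -1 from the RefSeq start, at chr15:103366792-103366941 on the minus strand for Itga5, and on the plus strand at chr7:128062490-128062639 for Itgam and chr7:128129400-128129549 for Itgax. Capitals mark GAGGAA, a core bound by ETS factors such as PU.1, GGGCGG, the GC box, and TGANTCA, the AP-1 motif, each searched on both strands, so that TTCCTC and CCGCCC are matches on the other strand. No match of one motif overlapped another in these windows.
Itga5: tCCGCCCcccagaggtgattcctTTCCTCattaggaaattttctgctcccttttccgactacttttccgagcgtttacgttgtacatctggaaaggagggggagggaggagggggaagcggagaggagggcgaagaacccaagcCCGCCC
Itgam: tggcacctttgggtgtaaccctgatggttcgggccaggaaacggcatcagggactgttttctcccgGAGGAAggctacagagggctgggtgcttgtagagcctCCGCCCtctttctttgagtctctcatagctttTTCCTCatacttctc
Itgax: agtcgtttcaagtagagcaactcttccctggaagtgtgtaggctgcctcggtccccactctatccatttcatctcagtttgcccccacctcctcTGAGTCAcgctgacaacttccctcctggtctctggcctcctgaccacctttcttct

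Itga5 held 1 GAGGAA match and 2 GC boxes, Itgam held 2 and 1, and Itgax held 1 AP-1 match and neither of the others. Of the 23 members with an entry, counted by gene, 10 held GAGGAA, 7 held GGGCGG and 1 held TGANTCA. Of 32851 promoter windows of the same length, counted by window, 14.5%, 28.6% and 4.24% held these motifs. These are letter matches and not measured binding sites.

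In naïve UON, 3 subunits stood far above the rest per length of transcript. Itgb4, the β chain of the hemidesmosomal laminin receptor, was at 120 and 122 FPKM, fragments scaled to library size and transcript length. Lamb2, the laminin β2 chain, was at 127 and 108, and Itgb1, the β chain shared by most matrix receptors, at 115 and 107. Both Itgb4 pools lay above both Itgb1 pools, and the Lamb2 pools overlapped the range of each. The next levels were near 20 FPKM, with the γ1 chain Lamc1 at 22.2 and 20.5, Itgav at 21.2 and 20.2, and Itgb8, whose product pairs with αv, at 19.5 and 16.5. Itga5 was at 9.25 and 19.2, with its pools further apart than those of these 6 genes. The laminin chain Lama4, of vessel and pial membranes, was at 11.8 and 8.02, and the laminin receptor α chains Itga3 and Itga6 were at 9.61 and 11.5 and at 10.2 and 9.96. Averaged over the pools, 10 of 37 members reached 10 FPKM and 12 were under 1.

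The same 3 genes led in naïve MON at lower levels. Itgb1 was at 46 and 35.2 FPKM, Itgb4 at 42.4 and 37.8, and Lamb2 at 33.1 and 22.4, of which Itgb1 and Itgb4 overlapped. Itgb2 was at 11.9 and 9.05 and Itgb5 at 10.9 and 16.1, so that 8 members reached 10 FPKM and 15 were under 1. The retina held less of nearly every subunit, with 0 members at 10 FPKM and 24 under 1. Its leading members were Itgb1 at 9.02 and 9.11, Itgb5, a vitronectin receptor β chain, at 8.6 and 8.66, Itga3 at 3.4 and 3.92, and Itga4, a receptor chain for VCAM1 and fibronectin, at 2.79 and 3.31. Itgb4, among the leading genes of the nerve, was at 0.138 and 0.205 in the retina, and Itgax was listed at 0 in both retinal pools.

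**Figure D1:**
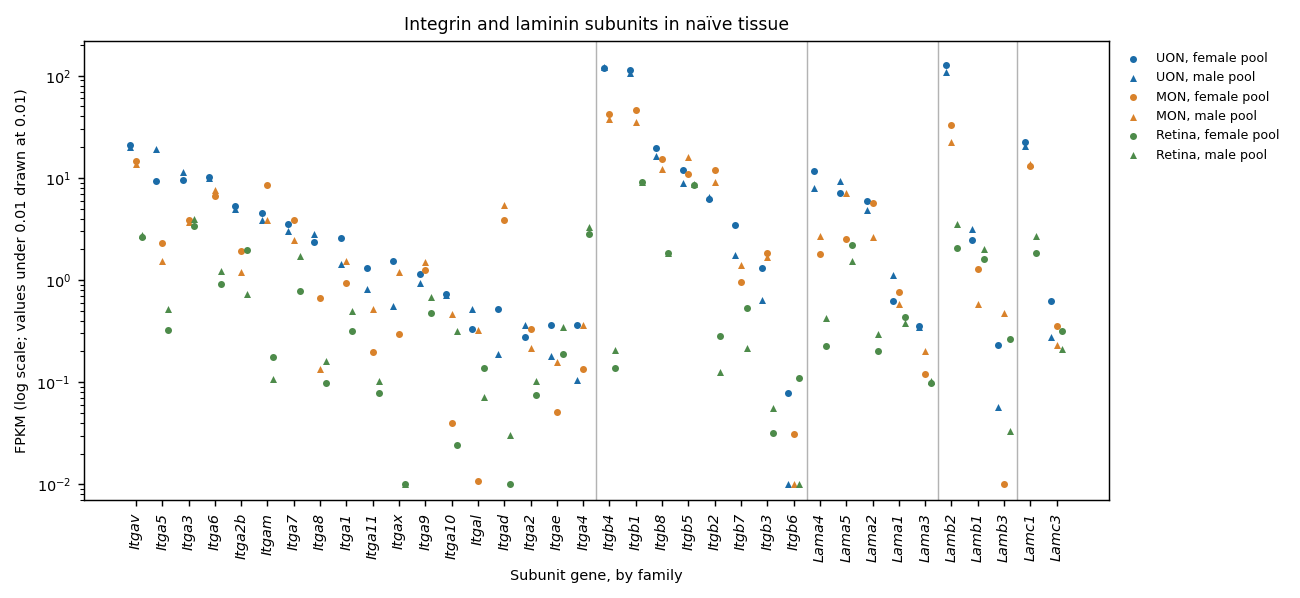
FPKM on a log axis of 36 subunit genes in the 6 naïve libraries, by family along the x axis; colours mark tissues and marker shapes mark the female and male pools. Itgb4, Lamb2 and Itgb1 exceed 100 FPKM in both UON pools, and no subunit reaches 10 FPKM in the retina.

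Within each laminin class the nerve was dominated by the β2 and γ1 chains. Lamb2 made up 97.9% and 97.1% of summed laminin β FPKM in UON and 96.3% and 95.5% in MON, but 53% and 63.5% in retina, where Lamb1 contributed 40.4% and 35.9%. Lamc1 made up 80.3% to 93.5% of the γ class in all 6 naïve libraries. The α class was mixed. In UON it was led by Lama4 at 45.5% and 33.7% and Lama5 at 27.5% and 39.5%, with Lama2, the chain of muscle and glial membranes, at 23.2% and 20.6%. The MON pools differed, with Lama2 at 52.3% and 20.1% and Lama5 at 23% and 53.7%. In CPM the same MON pools held Lama2 at 40.3 and 23 but Lama5 at 37.4 and 32.5. The higher male level of Lama5 was thus seen in FPKM alone. In retina Lama5 led at 69.8% and 56.3%. Among integrin β chains, Itgb4 held 43.3% and 46.2% of the summed FPKM in UON, 32.8% and 33.3% in MON, and 0.671% and 1.02% in retina. The RNA shares of a class do not show which trimers were assembled.

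**Figure D2:**
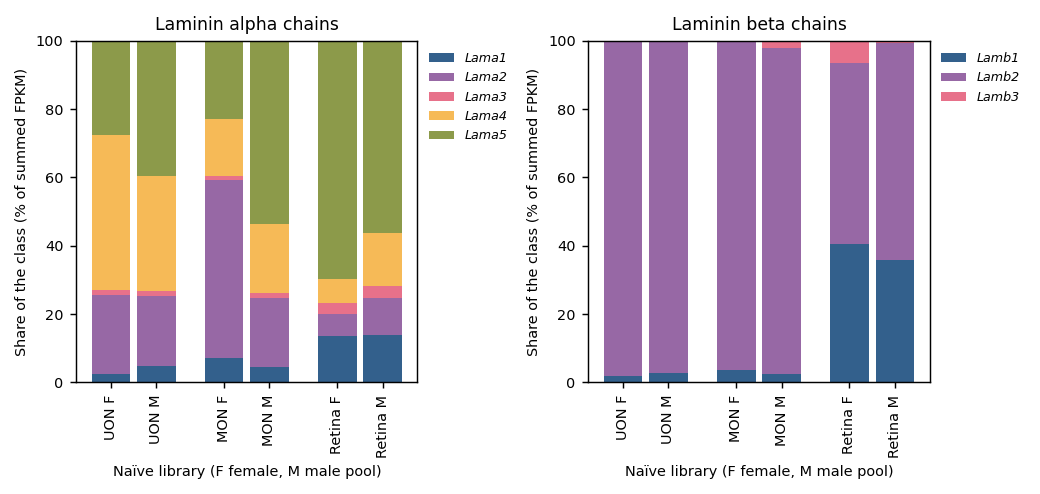
Share of each laminin class, in percent of the FPKM summed over its chains, in each naïve library (F female, M male pool), with 1 panel for the α and 1 for the β chains. Lamb2 fills over 95% of the β class in the nerve libraries and 53% and 63.5% in the retinal ones, and the α class is more mixed than the β class.

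The first comparison asked how UON differed from MON in naïve mice. By edgeR's quasi-likelihood test over all genes (Benjamini-Hochberg adjusted p under 0.05 and log2 fold change beyond 1), 8 of 36 members tested were higher in UON and 0 were lower. Of all 23685 genes tested, 9.63% were called, 4.83% as higher and 4.8% as lower. They included both chains of the laminin receptor α3β1. The median log2 difference was 0.80 over the members and -0.06 over all genes.

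Itga8, whose product binds nephronectin, was at 17.1 and 21.4 CPM in UON and 4.31 and 0.962 in MON. Itga5 was at 50.2 and 108 against 13.5 and 8.48. Both UON pools of either gene exceeded both MON pools, by log2 differences of 2.91 ± 0.72 (SE, adjusted p = 0.0483) and 2.66 ± 0.44 (0.0121). Lama4 was at 73.3 and 54.7 CPM against 10.6 and 12.8, a difference of 2.44 ± 0.37 (0.00837). Lamb2 was at 843 and 762 against 245 and 132, a difference of 2.09 ± 0.28 (0.00569). For both of these laminin chains the lowest UON pool lay well above the highest MON pool. A further 3 were abundant receptor chains that differed less. Itgb4 was at 890 and 941 CPM against 330 and 260 (log2 1.59, adjusted p = 0.0111), Itga3 at 56.4 and 73.6 against 25.1 and 20.8 (1.46, 0.0139), and Itgb1 at 549 and 532 against 246 and 159 (1.41, 0.0113).

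DESeq2 called the same 8 and, in addition, Lamb1 as higher and Itgad as lower in UON, 10 of 36 against 16.6% of all genes. Lamb1 was at 18.1 and 21.9 CPM in UON and 8.52 and 2.83 in MON (edgeR log2 1.84, adjusted p = 0.0772). Itgad, the αD partner of β2, was at 1.84 and 1.03 against 12.1 and 13.5 (edgeR -3.15, 0.0748). It was the member with the largest deficit in UON. Itgb2 was at 23.1 and 25.3 CPM in UON and 48.2 and 33.1 in MON, with both UON pools below both MON pools and a log2 difference of -0.74 that neither tool called (edgeR adjusted p = 0.225). The pools of Itgam, Itgal and Itgax overlapped between the segments. For Itgam this depended on Gm49368, a gene that overlaps it on the same strand. With the counts of Gm49368 added, a choice made after seeing the data, Itgam was at 26.5 and 23.5 CPM in UON. In MON it was then at 56.3 and 37.3, without overlap (edgeR log2 -0.90, adjusted p = 0.117). The UON pools lay wholly above the MON pools for 20 members (25.8% of all genes) and wholly below for 5 (28%).

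Fibroblast markers moved with this comparison. Their summed level was 2703 and 3026 CPM in UON against 665 and 541 in MON, with 5 of 8 markers called higher, and 2 of 7 pericyte and smooth muscle markers were higher, with sums of 649 and 899 against 134 and 146. Of 7 astrocyte markers, 3 were higher and 1 lower (22634 and 25913 against 16675 and 11277), and all 7 oligodendrocyte markers were lower. Surface epithelium markers summed to 6.56 and 120 CPM in UON and 6.33 and 7.21 in MON. The part of these cell types in the subunit differences was not tested. With all 36 libraries in 1 model, 5 of the 8 calls were made, and those that missed the threshold included Itga8 (adjusted p = 0.057) and Lama4 (0.0629). Without the male UON pool Itga3 (0.111) and Itgb1 (0.0591) missed it, and without the male MON pool Itga8 did (0.0781).

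Both nerve segments were then set against the retina, which served as the common comparator of both contrasts. In UON 26 of 36 members were higher and 1 was lower (31.7% of all genes called, 18.2% as higher and 13.5% as lower), and in MON 22 were higher and 1 was lower (27.6%, 16.7% and 10.9%). DESeq2 called 30 (37.7%) and 27 (34%). The median log2 difference over the members was 3.73 for UON and 2.22 for MON, against -0.17 and 0.00 over all genes, so that UON values are to be read against a shift of -0.17. The pools did not overlap for 33 members above and 1 below retina in UON (35.6% and 42.3% of all genes) and for 29 and 1 in MON (34.6% and 35.7%).

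Itgb4 showed the widest contrast of the members detected in all 3 tissues. Its mean was 916 ± 36.6 CPM (SD, n = 2) in UON, 295 ± 50.1 in MON and 1.05 ± 0.272 in retina, which are log2 differences from retina of 9.74 and 8.14. Of the laminin chains, in the same order of tissues, Lamb2 averaged 802 ± 56.8, 189 ± 80.2 and 10.2 ± 0.476 CPM (log2 6.24 and 4.15). Lama4 averaged 64 ± 13.1, 11.7 ± 1.55 and 1.26 ± 0.598 (5.69 and 3.24). Lamc1, the common γ chain, averaged 185, 97.9 and 6.67 CPM (4.75 and 3.87), Lama2 averaged 42.8, 31.6 and 1.59 (4.70 and 4.27), and Lama5 averaged 66.3, 34.9 and 5.68 (3.51 and 2.62). Lama3, an epithelial α chain, passed only in UON, at 4.8, 2.21 and 1.01 CPM (adjusted p = 0.0307, against 0.23 in MON). That call was lost in the single model of 36 libraries (0.078) and without any 1 of the 4 libraries (0.0782 to 0.184). Lama1, Lamb1, Lamb3 and Lamc3 passed in neither by edgeR. Lamb1 was at 20, 5.67 and 8.28 CPM.

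Receptor chains for matrix were likewise higher in nerve. Means of Itgb1 were 541 ± 12, 202 ± 61.6 and 31.7 ± 1.94 CPM in UON, MON and retina (log2 4.06 and 2.65). Itga5 averaged 79 ± 40.6, 11 ± 3.56 and 1.67 ± 0.738 (5.51 and 2.84), and Itga6 averaged 52.5, 36.9 and 2.92 (4.13 and 3.67). The chains that pair in αvβ8, a receptor that activates TGF-β, differed from retina to a like extent, with Itgb8 at 188, 139 and 9.52 CPM (4.26 and 3.84) and Itgav at 135, 78.3 and 5.9 (4.49 and 3.74). The collagen receptor chains Itga1 and Itga11 were at 24, 14.4 and 3.65 CPM (2.70 and 1.97) and at 6.71, 2.31 and 0.437 (3.95 and 2.34). Itga7, a laminin receptor chain of muscle and glia, was at 14.8, 15.3 and 4.09 (1.82 and 1.91), and Itga9, a tenascin receptor chain, at 8.95, 12.4 and 3.87 (1.19 and 1.68). The UON call of Itga9 was lost in the single model (0.307) and without any 1 of the 4 libraries (0.0976 to 0.314), and its MON call in the single model (0.054), without either MON pool (0.0546 and 0.0535) and without the female retinal pool (0.103). Itga8 at 19.2, 2.64 and 0.735 CPM (4.66) and Itga3 at 65, 23 and 13.3 (2.25) passed in UON only, with edgeR values of 1.75 (adjusted p = 0.119) and 0.79 (0.0512) in MON. Itgb5 at 29.4, 52.3 and 24 passed in MON only, by 1.12 against 0.26 in UON. Markers of other cell types moved with these differences. Fibroblast markers summed to 15.8 and 10 CPM in retina, astrocyte markers to 555 and 543 and pericyte and smooth muscle markers to 56.9 and 62.6, each below its sum in UON and MON given above. Of these markers 8 of 8, 6 of 7 and 4 of 7 were called higher in UON and 8 of 8, 6 of 7 and 3 of 7 in MON, and their part in the laminin and receptor differences was not tested.

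Among leukocyte and platelet integrins, the β2 family chains, Itgb3 and Itgb7 were low in retina, while Itga2b held 108 and 49 counts in its naïve pools. Means of Itgb2 were 24.2, 40.7 and 0.584 CPM in UON, MON and retina (log2 5.39 and 6.13), Itgam 25, 39.3 and 0.651 (5.29 and 5.84), and Itgad 1.43, 12.8 and 0.0663 (4.49 and 7.64). Itgax was at 0 in both retinal pools, so its mean of 3.5 CPM in UON was at least 14.1-fold higher and that of 1.96 in MON at least 7.88-fold higher than an assumed floor of 3 read pairs (12 counts) per library. Itgb3, the β chain of the platelet and vitronectin receptors, was at 7.19, 13.4 and 0.252 CPM (4.73 and 5.69). Its platelet partner Itga2b at 8.06, 4.58 and 1.59 passed in UON only (2.36, against 1.57 with adjusted p = 0.0501 in MON), as did Itgb7, a lymphocyte chain, at 4.14, 2.33 and 0.452 (3.18, against 2.36 and 0.0609). The 9 microglial markers summed to 1113 and 905 CPM in UON, 1393 and 1542 in MON and 53.7 and 47.7 in retina, and their part in these differences was not tested. Itga4 alone was lower in nerve, at 22.3 and 30.1 CPM in retina, 3.29 and 1.07 in UON and a mean of 2.69 in MON (log2 -3.60 ± 0.70, adjusted p = 0.00657, and -3.31 ± 0.69, 0.00972). Itga2, Itga10, Itgae and Itgal averaged under 5 CPM in each tissue and passed in neither comparison by edgeR, and Itgb6 was too low to test.

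In MON 3 days after crush, 4 of 36 members rose and 0 fell by edgeR (3.61% of all genes higher, 0.655% lower, 4.26% in either direction). They were Itga5 and 3 members of the β2 family. At 2 weeks, against the same naïve pools, 4 rose again and 0 fell (2.13% higher, 0.595% lower, 2.72% in either direction), namely Itga5, Itgax, Itgb2 and Itga7. The member medians were 0.64 at 3 days and 1.05 at 2 weeks, against 0.00 and 0.05 over all genes.

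Itga5 was at 13.5 and 8.48 CPM in naïve MON, 152 and 163 at 3 days and 69.3 and 57.5 at 2 weeks after crush. Every crush pool lay above both naïve pools, by log2 3.95 ± 0.31 (SE, adjusted p = 0.00533) and 2.58 ± 0.29 (0.0139), and the 3-day pools lay above the 2-week pools. The 3-day MON pools also lay above both naïve UON pools, which were at 50.2 and 108 CPM. Itgax, the αX chain known as CD11c, followed another course. It was at 0.86 and 3.07 CPM in naïve MON, 13.5 and 31.1 at 3 days and 84.2 and 45.6 at 2 weeks, with log2 changes of 3.69 ± 0.66 (0.0272) and 5.41 ± 0.72 (0.0204). Both 2-week pools lay above both 3-day pools.

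Itgb2, the common β2 chain, was at 48.2 and 33.1 CPM in naïve MON, 182 and 286 at 3 days and 373 and 200 at 2 weeks. It rose by log2 2.66 ± 0.41 (0.0186) and 2.84 ± 0.41 (0.0255), and the pools of the 2 times overlapped. Itgam, the αM chain known as CD11b, was at 56.3 and 22.4 CPM, then 162 and 243, then 296 and 102. It rose at 3 days by 2.69 ± 0.53 (0.0362). At 2 weeks its value of 2.36 was called by DESeq2 only (edgeR adjusted p = 0.0593). The gene Gm49368 overlaps Itgam on the same strand and was at 0 in every female MON pool and at 14.9 CPM in the naïve male pool. With its counts added, a choice made after seeing the data, the 3-day change of Itgam was 2.30 (0.0423) and the 2-week one 2.08 (0.0675). Itga7 was at 18.6 and 12.1 CPM in naïve MON and 47.5 and 42.5 at 2 weeks, where it rose by 1.61 ± 0.29 (0.0393). It was at 33.9 and 35.2 at 3 days (1.28, edgeR adjusted p = 0.0564).

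The α partners of β2 did not move together. Per length of transcript, Itgb2 was at 11.9 and 9.05 FPKM in naïve MON beside a sum of 12.8 and 10.8 for its 4 partners, of which Itgam gave 8.6 and 3.88 and Itgad 3.86 and 5.37. At 2 weeks after crush Itgb2 was at 111 and 55.8 and the sum at 80 and 29.9, with Itgam at 55.6 and 18, Itgax at 18.7 and 9.79 and Itgad at 2.72 and 0.978. Itgad was at 12.1 and 13.5 CPM in naïve MON, 3.33 and 2.58 at 3 days and 4.1 and 2.76 at 2 weeks. All crush pools were below the naïve ones, and DESeq2 called it lower at both times (edgeR -2.06, adjusted p = 0.0575, and -1.90, 0.0849). Itgal, the αL chain of LFA-1, was at 0.0796 and 2.1 CPM in naïve MON, 13.1 and 12.2 at 3 days and 16.1 and 6.31 at 2 weeks, and was called by neither tool.

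The laminin chains passed only in DESeq2, which called 10 members at 3 days (12.3% of all genes) and 10 at 2 weeks (8.93%). Lamb1 was at 8.52 and 2.83 CPM in naïve MON and 16.7 and 35.6 at 3 days (edgeR log2 2.42, adjusted p = 0.0772). Lama4 was at 10.6 and 12.8, then 23.2 and 35 (1.38, 0.0604), and at 2 weeks 28.2 and 25.1 (1.24, 0.099). In both chains each 3-day crush pool exceeded both naïve pools. Lama2 went the other way at 3 days, from 40.3 and 23 CPM to 14.3 and 7.31 (-1.48, 0.0701). Lamb2 was at 245 and 132 in naïve MON and 334 and 565 at 2 weeks (1.43, 0.216), after 181 and 70.2 at 3 days, where its pools overlapped those of naïve MON. Within its class Lamb1 held 3.7% and 2.47% of laminin β FPKM in naïve MON and 8.73% and 31.5% at 3 days, and Lama4 held 16.6% and 20.3% of laminin α FPKM and then 40.2% and 64.2%. The other DESeq2 calls were Itgb1 at 3 days (1.16) and Itgb5 (1.15) and Itga6 (1.06) at 2 weeks, beside Itga7 and Itgad at 3 days and Itgam and Itgad at 2 weeks given above.

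The abundant receptor chains did not pass edgeR after crush in MON. Itgb1 was at 246 and 159 CPM in naïve MON, 411 and 451 at 3 days and 374 and 403 at 2 weeks, with every crush pool above both naïve pools (edgeR 1.20, adjusted p = 0.0842, at 3 days). Itga6 was at 38 and 35.8 CPM, then 55 and 61.2, then 68.7 and 85.7, again without overlap (1.09, 0.0744, at 2 weeks). Its partner Itgb4 was at 330 and 260 CPM, then 256 and 143, then 352 and 668, so that its pools lay below naïve at 3 days (-0.48, 0.592) and above at 2 weeks (0.85, 0.418). Lamc1 was at 119 and 77.1 CPM, then 44.2 and 70.8, then 80.1 and 130, and Itgb8 at 169 and 109, then 130 and 71.6, then 121 and 161, both with pools that overlapped at 2 weeks. The rarest chains, Itgae and Lamb3, stayed under 5 CPM in every MON crush library, and Itgb6 at 0.184 or less.

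Before adjustment, 17 members had an edgeR p under 0.05 at 3 days (21% of all genes) and 16 at 2 weeks (16%). Pools lay wholly above naïve for 17 members and below for 6 at 3 days (28.5% and 26.3% of all genes), and for 20 and 2 at 2 weeks (26.4% and 22.2%). The calls rested on both naïve pools. At 3 days 1 member was called without the female naïve pool and 2 without the male one, Itga5 each time, and without the female crush pool 12 were. At 2 weeks the counts were 0 without the female naïve pool, 2 without the male one, and 10 and 11 without the female and the male crush pool.

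Leukocyte markers were also at higher levels. The 9 microglial markers summed to 1393 and 1542 CPM in naïve MON, 3254 and 3808 at 3 days and 7488 and 4172 at 2 weeks, with 1 and 3 of 9 called higher. Monocyte and border macrophage markers summed to 10.2 and 7.7, then 98.3 and 331, then 130 and 44.5, with 3 and 2 of 7 higher. Neutrophil markers summed to 0 and 1.32, then 13.9 and 31.3, then 8.25 and 0.981, with Ly6g and Camp at 0 in all of these libraries and 1 of the 3 that could be tested higher at 3 days. Markers of resident cells differed too. Oligodendrocyte markers summed to 164812 and 122611 CPM in naïve MON, 86526 and 72301 at 3 days and 46770 and 59730 at 2 weeks, with 1 of 7 lower at 2 weeks. Pericyte and smooth muscle markers summed to 134 and 146, then 244 and 232, then 248 and 243, with 1 of 7 higher at 3 days, and fibroblast markers to 665 and 541, then 657 and 1044, then 1811 and 961. The part of these cells in the values of the β2, laminin and receptor chains was not tested.

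**Figure D3:**
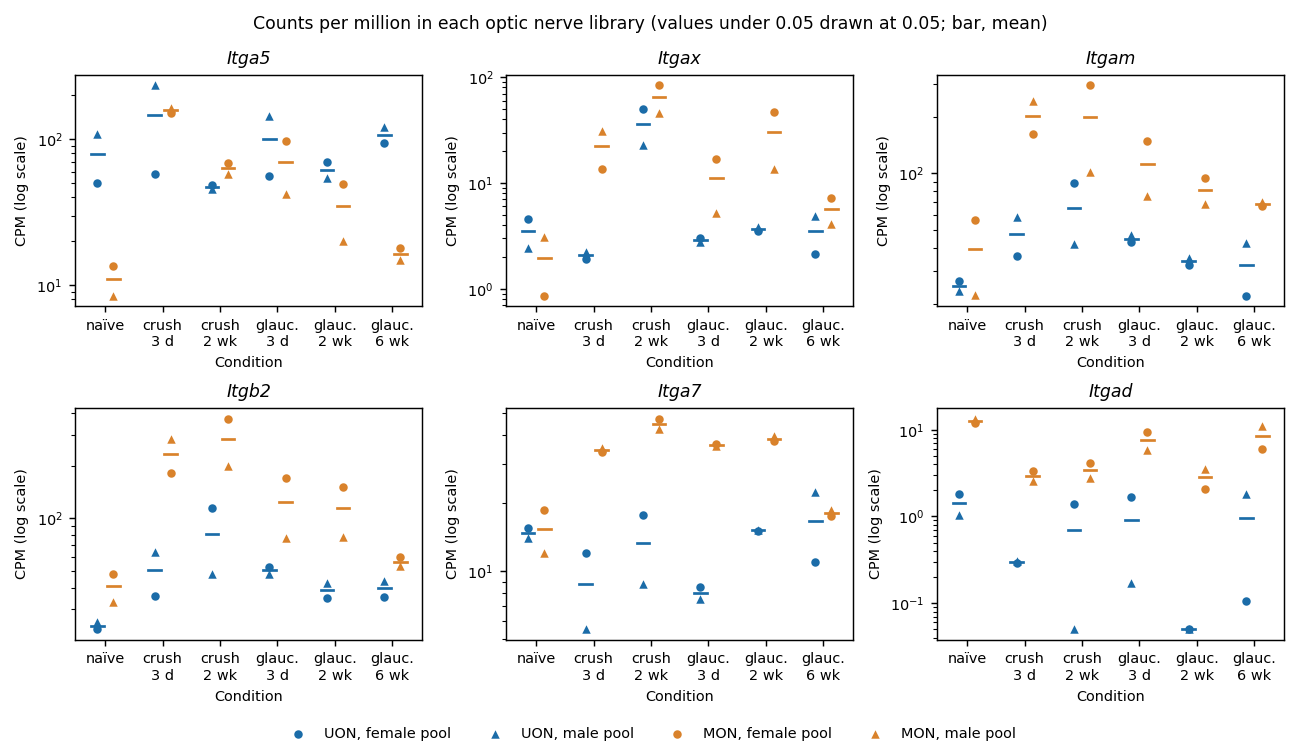
CPM on a log axis in each UON and MON library for 6 subunit genes across naïve, crush and glaucoma groups; points are the female and male pools, bars are group means, and values under 0.05 are drawn at 0.05. In MON Itga5 peaks at 3 days after crush at 152 and 163 CPM and Itgax at 2 weeks at 84.2 and 45.6, while UON Itga5 stays between 45.9 and 235 CPM in every library.

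After microbead injection, edgeR called 0 members in MON at any of the 3 times, and it called 0% of all genes at each time. The members with an unadjusted p under 0.05 numbered 11, 10 and 1 of 37, against 8.07%, 8.78% and 4.91% of all genes. DESeq2 called 4 members at 3 days (2.3% of all genes), 8 at 2 weeks (2.65%) and 0 at 6 weeks (0.247%). Itga5 was at 97.5 and 41.9 CPM at 3 days, 49.5 and 20 at 2 weeks and 18.1 and 14.8 at 6 weeks, against 13.5 and 8.48 in naïve MON. Every glaucoma pool was above both naïve pools, and its log2 differences at 3 days and 2 weeks were 2.55 (edgeR adjusted p = 0.261) and 1.55 (0.293). Itgb2 was at 169 and 77.5, then 151 and 77.9, then 59.8 and 53.1 CPM. Its differences at the first 2 times were 1.51 by DESeq2 (edgeR adjusted p = 0.354) and 1.42 (0.293). Itgax was at 16.9 and 5.21, then 47.1 and 13.6, then 7.18 and 4.12 CPM, with 3.58 (0.352) at 2 weeks. For both β2 family genes the 6-week group had the mean closest to naïve MON.

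Itga7 was also among the DESeq2 calls, at 36.5 and 35.7 CPM at 3 days (edgeR 1.21, 0.354), 37.7 and 39.6 at 2 weeks (1.33, 0.293) and 17.5 and 18.6 at 6 weeks. Itgam was at 148 and 75.6 CPM at 3 days (1.52, 0.357) and 94.8 and 68.8 at 2 weeks (1.14, 0.386). With the counts of Gm49368 added, its edgeR values were 1.21 (0.381) and 0.83 (0.484). Itgad was at 2.09 and 3.55 at 2 weeks, below its naïve pools (-2.22, 0.293). The collagen receptor chain Itga2 was also called at 2 weeks (1.56, 0.366). Microglial markers summed to 2211 and 2702, 3607 and 2486, and 2333 and 2089 CPM at the 3 times. Monocyte and border macrophage markers summed to 79.1 and 37.6, 25.5 and 28.8, and 8.17 and 9.47 CPM, against 10.2 and 7.7 in naïve MON. Neutrophil markers reached 8.96 in the female 3-day pool and at most 0.823 in the other glaucoma pools, and the part of these cells was not tested. Non-overlapping members numbered 15 above and 3 below naïve at 3 days (17.5% and 18.7% of all genes), 21 and 2 at 2 weeks (20.2% and 20.3%) and 11 and 6 at 6 weeks (19% and 21.2%).

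A pair of MON glaucoma libraries carried markers of surface epithelium. The 9 markers summed to 2076 CPM in the male 2-week pool and 2548 in the female 6-week pool, and to 11.6 or less in every other MON library. Of the epithelial chains, Lamb3 was at 7.03 CPM in the female and 0.174 in the male 6-week pool, Itgb6 was at 3.18 in the male and 0.501 in the female 2-week pool, and Lama3 was at 7.01 and 8.94 at 2 weeks and 5.12 and 1.8 at 6 weeks. None of these chains was called. The markers summed to 9.01 in the 2-week female MON pool, and the part of epithelium in these values was not tested. In UON the markers summed to 120 CPM in the naïve male pool and 160 in the male 2-week glaucoma pool. Every other UON library was at 25.9 or less. The naïve male pool entered each comparison with naïve UON.

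In UON the same injuries gave no call by edgeR. EdgeR called 0 of 36 members in the 2 crush comparisons and 0 of 37 in the 3 glaucoma comparisons, and it called 0% of all genes after crush at 3 days and at the 3 glaucoma times, and 0.0281% after crush at 2 weeks. The members with an unadjusted p under 0.05 numbered 0 and 7 after crush (3.07% and 9.27% of all genes) and 2, 4 and 2 after microbeads (3.87%, 3.57% and 2.01%). DESeq2 called 2 at 2 weeks after crush (2.66% of all genes) and 0 elsewhere, where it called 1.01% of all genes after crush at 3 days and 0.608%, 0.303% and 0.15% at the glaucoma times. Itgax was at 4.57 and 2.44 CPM in naïve UON, 1.91 and 2.24 at 3 days and 49.7 and 23.1 at 2 weeks after crush, where both pools exceeded every other UON library (edgeR 3.34 ± 0.52, adjusted p = 0.191). Itgb2 was at 23.1 and 25.3, then 36 and 64.4, then 115 and 47.7 CPM (1.71 ± 0.52 at 2 weeks, 0.489). After microbeads Itgb2 was at 52.4 and 48.2, 34.8 and 42.7, and 35.5 and 43.7 CPM at the 3 times. Each of these pools lay above both naïve pools without a call, while the Itgax pools overlapped naïve at each time. Itgam pools lay above naïve at 3 days and 2 weeks of glaucoma and overlapped at 6 weeks. The 9 microglial markers summed to 1113 and 905 CPM in naïve UON, 1061 and 1658 at 3 days and 3231 and 2092 at 2 weeks after crush. At the 3 glaucoma times they summed to 1434 and 1293, 1111 and 1415, and 846 and 1699. Their part in these values was not tested.

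Neither tool called Itga5 in UON. Its pools overlapped the naïve pools at 3 days after crush and lay below both of them at 2 weeks. It was at 50.2 and 108 CPM in naïve pools, 57.6 and 235 at 3 days and 48.4 and 45.9 at 2 weeks after crush, with log2 differences of 0.76 ± 0.49 and -0.56 ± 0.49 (edgeR adjusted p = 1 and 0.745). The laminin chains differed among themselves, and neither tool called any of them. Lama4 was at 73.3 and 54.7 CPM in naïve UON, 28.3 and 92.7 at 3 days and 42.2 and 65.3 at 2 weeks after crush. Lamb2 was at 843 and 762 CPM, then 621 and 383, then 462 and 341, so that each crush pool was below both naïve pools (at 2 weeks -1.03, unadjusted p = 0.0143, adjusted 0.49). In CPM at 2 weeks both crush pools of Lama1, Lama5, Lamc1 and Lamc3 also lay below both naïve pools. Those of Lama2, Lama3, Lama4, Lamb1 and Lamb3 overlapped naïve, and no laminin chain lay wholly above. Itgav was at 134 and 137 CPM in naïve UON and ranged from 13.7 to 149 after injury.

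The pools of both nerve segments differed from each other. The median over the members of the absolute log2 ratio of female to male pool was 0.31 in naïve UON and 0.48 to 0.87 in the injured UON groups, 0.61 in naïve MON with a range of 0.29 to 0.73 over all MON groups, and 0.17 to 0.39 in retina. These medians rested on 33 to 35 members in the nerve groups but on 22 to 26 in the retinal ones, so nerve and retina are not compared over the same genes. UON pools lay wholly above and below naïve for 5 and 10 members at 3 days after crush (18.4% and 18% of all genes), 5 and 12 at 2 weeks (19.7% and 24.7%), and 7 and 3, 7 and 3, and 3 and 6 at the 3 glaucoma times (17.1% and 17.1%, 16.9% and 18.4%, 14.7% and 15.6%).

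**Figure D4:**
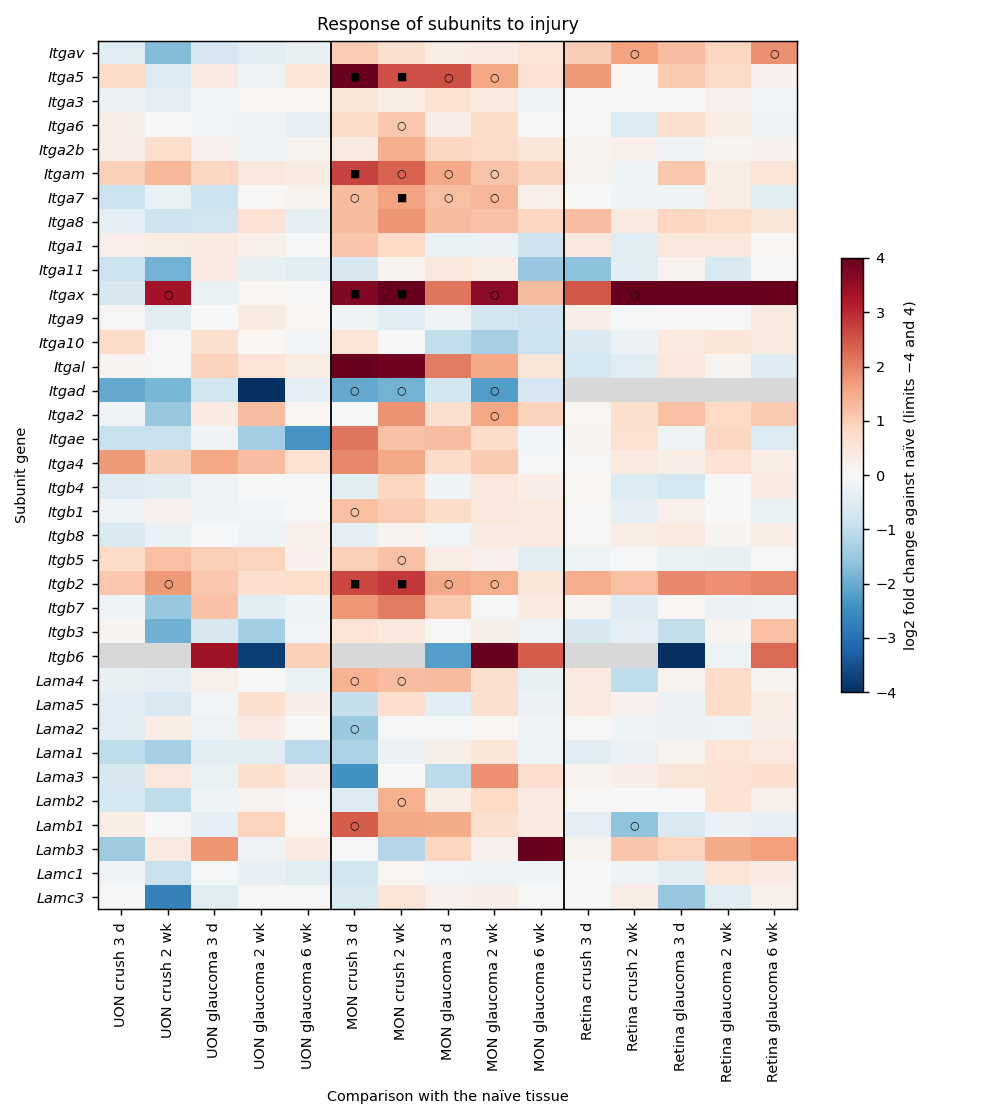
Log2 fold change of 36 subunit genes against the naïve pools of its tissue, in each of the 15 injury comparisons (colour, limits -4 and 4; grey, not tested). Squares mark calls by edgeR and circles calls by DESeq2 alone; the squares all lie in the MON crush columns. Retinal Itgax is set against naïve pools at 0 and Itgb6 is near 0 throughout, so their colours are not sizes of effect.

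Whether the response differed between UON and MON was tested as an interaction. EdgeR called 0 members for crush and glaucoma at each time, and 0.016% and 0.004% of all genes for crush at 3 days and 2 weeks and 0% for glaucoma. The members with an unadjusted p under 0.05 numbered 7, 8, 6, 6 and 0, against 6.2%, 9.71%, 5%, 5.56% and 2.52% of all genes. DESeq2 called 3 members for crush at 3 days (1.16% of all genes), 2 for crush at 2 weeks (2.25%), 1 for glaucoma at 3 days (0.289%) and 0 for the later glaucoma times (0.621% and 0.14%). Itga5 recurred, with a UON minus MON difference of -3.14 ± 0.63 on the log2 scale at 3 days (edgeR adjusted p = 0.265) and -3.12 ± 0.63 at 2 weeks (0.163). The other calls were Itgax at 3 days of crush (-4.27 ± 0.88, 0.281), Itga7 at 3 days of crush (-2.11, 0.374) and of glaucoma (-2.13, 0.829), and Lamb2 at 2 weeks of crush (-2.46 ± 0.64, 0.26). For Itga7, UON held 12 and 5.53 CPM at 3 days after crush against 15.5 and 14.1 in naïve UON, while MON held 33.9 and 35.2 against 18.6 and 12.1.

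Crush and glaucoma were compared at 3 days and 2 weeks in each tissue. EdgeR called 0 members in these 6 comparisons, against 0% and 0.0311% of all genes in UON, 0.00448% and 0% in MON and 0.00848% and 0.0509% in retina. At an unadjusted p under 0.05 there were 0 and 2 members in UON, 7 and 8 in MON, and 2 and 3 in retina, against 0.654% and 6.56%, 9.8% and 7.32%, and 3.49% and 6.52% of all genes. DESeq2 called 1 member in UON at 2 weeks (Itgax, edgeR 3.25 higher after crush, adjusted p = 0.277), 2 in MON at 3 days (Itga5, 1.40 higher, 0.49, and Lama2, -1.48, 0.49), 1 in retina at 2 weeks (Lamb1, -1.36, 0.398) and 0 in the other 3. Of all genes DESeq2 called 0.0471% and 1.22% in UON, 2.35% and 1.57% in MON and 0.205% and 0.673% in retina. The MON pools of Itga5 at 3 days, 152 and 163 CPM after crush and 97.5 and 41.9 after microbeads, did not overlap.

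In retina edgeR called 0 members after either injury. Of all genes it called 0.0221% and 0.313% after crush at 3 days and 2 weeks and 0.00429%, 0% and 0.00858% at the 3 glaucoma times. The members with an unadjusted p under 0.05 numbered 2 and 4 of 35 after crush (6.34% and 8.99% of all genes) and 4, 4 and 3 of 36 after microbeads (6.09%, 6.29% and 5.67%). DESeq2 called 3 members at 2 weeks after crush (1.51% of all genes), 1 at 6 weeks of glaucoma (0.526%) and 0 in the other 3 (0.633%, 0.669% and 0.442%). Itgav was at 6.79 and 5 CPM in naïve retina, 6.7 and 17.8 at 3 days and 19.5 and 17.9 at 2 weeks after crush, and 21.9 and 8.45, 18.2 and 6.04, and 23.3 and 17.7 at the glaucoma times. It lay above both naïve pools at 2 weeks of crush (1.61 ± 0.42, edgeR adjusted p = 0.278) and 6 weeks of glaucoma (1.82 ± 0.38, 0.634), the comparisons in which DESeq2 called it. The 3-day glaucoma pools also lay above both naïve pools, without a call. In FPKM the relative rise was smaller. Itgav was at 2.61 and 2.76 FPKM in naïve retina, 3.75 and 4.43 at 2 weeks after crush and 5.37 and 4.37 at 6 weeks of glaucoma.

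Lamb1 was at 7.22 and 9.33 CPM in naïve retina and 2.79 and 2.75 at 2 weeks after crush, below every other retinal library (-1.62 ± 0.32, edgeR adjusted p = 0.144). At that time the summed level of 6 retinal ganglion cell markers was 131 and 115 CPM, against 995 and 911 in naïve retina, with 5 of 6 called lower, and their part in the Lamb1 values was not tested. Itgax, at 0 in naïve retina, was at 1.08 and 0.45 CPM, a mean at least 3.07-fold higher than the floor of 12 counts. Itga4, the member that set retina apart from nerve, was at 22.3 and 30.1 CPM in naïve retina and between 23.3 and 41.4 after injury, and neither tool called it.

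**Figure D5:**
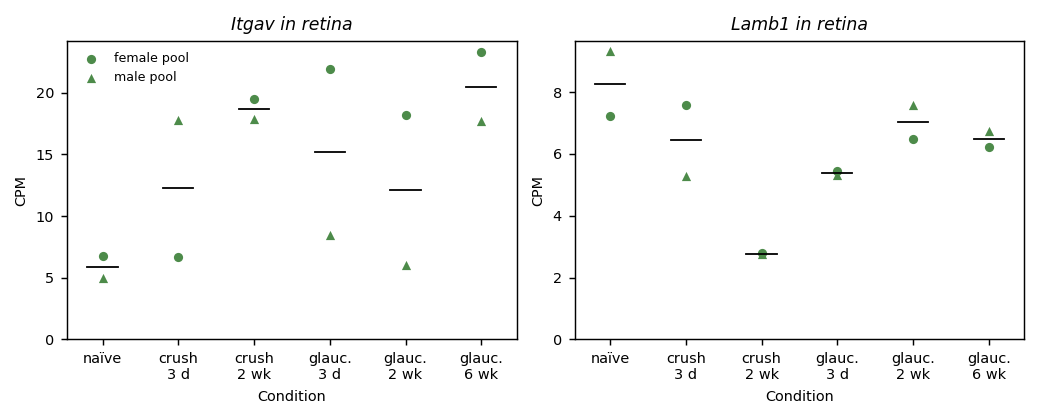
CPM in each retinal library for Itgav and Lamb1 across naïve, crush and glaucoma groups; points are the female and male pools and bars are group means. Lamb1 is lowest at 2 weeks after crush, at 2.79 and 2.75 CPM, and the Itgav pools of several injured groups lie far apart.

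The wider pathway was described by 3 lists of genes: 26 non-laminin ligands of integrins and activation partners, 30 proteins of the intracellular adhesome, which couple integrins to actin, and 15 laminin partners, such as nidogens, perlecan and syndecans. In naïve UON against MON edgeR called 4.83% of all genes as higher and 4.8% as lower. Of 22 ligands tested, 11 were higher and 1 lower (median log2 1.26), led by Tnc, which encodes tenascin-C (5.02), and Cdh1 (3.82), with Edil3 lower (-3.37). Laminin partners were higher for 11 of 15 and lower for 0 (median 1.78), led by the netrin Ntn4 (2.58) and the syndecan Sdc3 (2.08). The adhesome was divided, with 7 higher and 4 lower of 29 (median 0.13). Its parvins moved in opposite directions, Parva at 2.44 and Parvb at -2.62, with vinculin (Vcl, 2.41) higher and the talin Tln2 (-1.58) lower. Against retina, 15 ligands, 23 adhesome genes and 14 laminin partners were higher in UON with 3, 2 and 0 lower, and 12, 23 and 11 were higher in MON with 3, 0 and 0 lower. Of all genes, 18.2% were higher and 13.5% lower in UON, and 16.7% and 10.9% in MON.

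After crush in MON, 7 of 23 ligands rose at 3 days and 8 at 2 weeks, with 0 lower (medians 1.37 and 1.62). Of all genes, 3.61% and 2.13% rose at these times and 0.655% and 0.595% fell. Spp1, which encodes osteopontin, was at 45.6 and 24.7 CPM in naïve MON, 7815 and 17454 at 3 days and 4669 and 686 at 2 weeks, log2 changes of 8.83 ± 1.11 (adjusted p = 0.0117) and 6.08 ± 0.99 (0.034). The thrombospondin Thbs1 rose by 8.32 and 4.00. Of 29 adhesome genes 3 rose and 2 fell at 3 days (median 0.37), among them the leukocyte forms Parvg (2.68) and Fermt3 (1.80), with Fyn (-1.60) and Lims2 (-1.56) lower, and Fermt3 alone rose at 2 weeks (1.80). Of 15 laminin partners 2 rose at each time, the syndecan Sdc1 (1.98) and the nidogen Nid2 (1.54) at 3 days and Nid2 (2.61) and the tetraspanin Cd151 (1.41) at 2 weeks. In the injury comparisons of UON, of retina and of MON after microbeads, edgeR called 0 genes of these lists. DESeq2 called 8 of 22 ligands as higher in MON at 3 days of glaucoma and 4 of 22 at 2 weeks, with 1 adhesome gene and 1 laminin partner higher at each of these times, and at most 2 genes of a list in any UON or retinal comparison. Of all genes it called 2.3% and 2.65% in MON at 3 days and 2 weeks of glaucoma.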

How the data were processed

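RNA of the 3 tissues was sequenced by the authors as paired ends after ultra-low input library preparation. According to the study's methods and the submitters' processing notes, reads were aligned to GRCm38 with HISAT2 2.2.1 and assembled with StringTie 1.3.0 on Gencode annotation, and gene counts were derived from coverage with StringTie's own script. The strand setting is not given in the sources used here. The deposited gene matrix holds estimated counts, which were used as whole numbers. Because they come from coverage, 1 read pair may be worth about 4 counts. This was inferred from the values only, since 31.9% of counts from 5 to 40 were multiples of 4 against 25% of the whole numbers in that range. A floor of 12 counts (3 such read pairs, counting error only) was therefore assumed, and folds given as at least a value rest on it. The deposited FPKM values and TPM values of each library are StringTie estimates per length. Values just below 0 (13 libraries, at most 3 genes each) were treated as 0, with the unit of those columns recorded as other. All count columns were mapped, with 0 left unused. The transcript table and the authors' tables of fold changes and p-values were not used.

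Groups came from the labels (18 groups of 2 pools). Low genes were removed by filterByExpr (at least 10 counts, total at least 15), libraries were scaled by TMM, and all remaining genes were tested with the quasi-likelihood test of edgeR 4.0.16 in R 4.3.3, with a term for sex. Naïve tissues were fitted together (6 libraries), injuries by tissue and kind of injury (6 or 8 libraries), and UON minus MON responses with both tissues (12 or 16 libraries). A gene was called where its log2 fold change went beyond 1 and its p, adjusted by Benjamini and Hochberg, was below 0.05. DESeq2 1.42.0 was the alternative tool. The test was tried on simulated data with known changes. Values of 1 member are not reported here, although it stays in the counts and medians. All other called members are named, with every library's value for at most 5 of the most changed per comparison. Of the other lists, at most 2 called genes in each direction are named. Members, lists and tests were chosen with earlier results of these data known. For depth, the lowest library held 16.2 M counts.

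The 3 tissues came from the same mice, so in the fit of naïve tissues the sex term is also the block of shared mice. In the injury fits, which hold a single tissue, it stands for sex alone. Over 16292 autosomal genes, female minus male differences of tissues from the same mice correlated at -0.09 to 0.21 (18 pairs, median 0.01), and those of groups sharing only sex at -0.12 to 0.15 (15 pairs, median 0.05). All 37 members had the same coordinates in the deposited files and in the mouse Gencode release M21, which was used for overlaps. Of them 20 overlapped another gene, 8 of them a protein-coding one. Reads of such pairs cannot be told apart without strand. Alternatives were another tool, other scaling, no filter, no sex term, 1 model for all libraries, and leaving out each library.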

Additional observations from a re-analysis of the deposited data

How the results depend on the processing

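Of 151 results recomputed under another setting, 126 stayed and 25 did not. Apart from a median ratio, these were counts of called members, which stayed if within 1.5 times the reported count. In most comparisons that count was 0, and many that stayed were 0 again. The ratio, naïve UON over MON, was log2 0.70 in FPKM and 0.84 in TPM and was also taken as unchanged. Among members called by edgeR or DESeq2, 0 of 587 single values turned direction. Members that neither tool called were left out of those 587. The largest effect came from the tool. With DESeq2 the counts were 10 and 10 in MON at 3 days and 2 weeks after crush in place of 4 and 4, and 4 and 8 in MON at 3 days and 2 weeks of glaucoma, 2 in UON and 3 in retina at 2 weeks after crush, and 1 in retina at 6 weeks of glaucoma in place of 0. For the UON minus MON responses DESeq2 gave 3 and 2 for crush and 1 for glaucoma at 3 days, and for crush against glaucoma 1 in UON and 1 in retina at 2 weeks and 2 in MON at 3 days, each in place of 0. Without a low count filter the counts were 11 and 11 in MON after crush, 1 in MON at 3 days of glaucoma, 1 in UON at 2 weeks after crush, 2 and 4 for the UON minus MON crush responses and 1 for crush against glaucoma in UON at 2 weeks. With all 36 libraries in 1 model, UON against MON gave 5 in place of 8, and UON at 2 weeks after crush, the UON minus MON response to crush at 2 weeks and crush against glaucoma in UON at 2 weeks each gave 1. The cause of these shifts was not tested.

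Without the sex term, which stands for sex alone in the injury fits, MON at 3 days after crush gave 8 members in place of 4. A block for the mouse pools gave 0 for the UON minus MON responses. Neither changed another count by over 1.5 times. Leaving out 1 library left a group with a lone library that was assumed to vary like the others. The counts then ran from 7 to 11 for UON against MON, 23 to 26 and 20 to 22 for UON and MON against retina, 1 to 12 and 0 to 11 for MON at 3 days and 2 weeks after crush, 0 to 2 and 0 to 6 for the UON minus MON crush responses, 0 to 4 for crush against glaucoma in UON at 2 weeks and 0 to 5 in MON at 3 days. The 6, the 4 and the 5 came without the female UON pool at 2 weeks after crush, for the first pair, and without the female MON pool at 3 days after crush. In MON at 3 days after crush the Itga5 call held without each library in turn. Itgax (log2 2.98 and 4.69 without the female and the male naïve pool), Itgb2 (2.84 and 2.46) and Itgam (3.07 and 2.25) missed the threshold without either naïve pool. Itgam also missed it without the male crush pool (1.55). At 2 weeks Itga5 (2.87 and 2.34), Itgb2 (3.04 and 2.69) and Itga7 (1.88 and 1.37) missed it without either naïve pool, and Itgax without the female one (4.51). Against retina, leaving out a library also ended calls. In UON these were Itga7 (0.0894 without the female retinal pool), Itga2b (0.0627, male retinal) and Itgb7 (0.135 and 0.159, female retinal and female UON). In MON they were Itga7 (0.0765 and 0.089, female MON and female retinal), Itga11 (0.248, 0.122 and 0.147, male MON and each retinal pool) and Itgb5 (0.0945 and 0.107, male MON and male retinal). In the single model of 36 libraries Itgad (0.129) and Itgb7 (0.152) in UON and Itga11 (0.457) and Itgb5 (0.0594) in MON missed the threshold, and Itga9 in UON also did so without a filter (0.0541) and with RLE scaling (0.0508). At the depth of 2 pools per group, calls of 0 do not show that a subunit was unaltered.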
